A study of Mus musculus with 6 samples.

Results

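Trbv12-1, Trbv12-2 and Trbv24 are 3 of the variable (V) segments from which the T-cell receptor beta chain is assembled. Trbv12-1 and Trbv12-2 encode the Vβ5 pair and Trbv24 encodes Vβ17. They were described in T follicular regulatory (Tfr) cells, the Foxp3-expressing CD4 T cells of B-cell follicles. Their rearrangements were chosen by the V segment name alone, with allele suffixes ignored. This gave 258 of 4409 listed rearrangements and 361 of 7043 templates, 5.13%. TRBV12-1 had 82 rearrangements with 127 templates, TRBV12-2 had 99 with 138, and TRBV24 had 77 with 96. A rearrangement is a distinct nucleotide sequence listed in 1 sample, and a template is 1 unit of its deposited count. The files do not say whether that count is of DNA molecules or of reads.

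The samples came from the spleens of 3 Foxp3GFP mice, and the 2 samples of a mouse bear the titles superior and inferior. What these words stand for is not in the labels, which give neither a treatment nor the strain background, age or sex of the mice. Genomic DNA of the sorted cells was read with the immunoSEQ mouse TCRB assay at survey resolution. The samples held 667 to 1855 templates. The files hold only beta-chain rearrangements, so the labelled cell type could not be checked against marker genes.

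The beta chain is built by joining a V, a D and a J segment, and the junction forms the third complementarity-determining region (CDR3), the loop that contacts peptide. Vβ5 and Vβ17 are classical examples of strain-dependent V usage in mice. T cells bearing Vβ5 are removed in the thymus where mouse mammary tumour virus superantigens are presented by I-E, a class II molecule. Vβ17 chains of some strains react with I-E, whereas other strains carry a Vβ17 segment that is interrupted by a stop codon and yields no chain. A T cell can carry a rearrangement on each of its Tcrb alleles, and an assay of DNA reads both whether or not they are expressed.

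The part of each segment that ends at the CDR3 cysteine is shown first, because the segments differ there in the reading frame. Each is the most frequent form in the deposited rearrangements, written 5′ to 3′, and ends with the cysteine codon. Capitals mark the codon 2 places before that cysteine.
TRBV12-1: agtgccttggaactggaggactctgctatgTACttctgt
TRBV12-2: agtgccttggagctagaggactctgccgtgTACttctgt
TRBV24: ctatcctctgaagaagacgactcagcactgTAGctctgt
These forms were carried by 76 of 80 TRBV12-1, 95 of 99 TRBV12-2 and 58 of 77 TRBV24 rearrangements read over this stretch. The Vβ5 pair differed from each other at 4 of the 36 bases before the cysteine codon, as A12G, G15A, T27C and A28G, with TRBV12-1 as the reference and positions counted from 1 at the 5′ end of the printed run. TRBV24 differed from either at 15 of 36. On chromosome 6 of mm10 (GRCm38.p6, coordinates of the RefSeq gene table) TRBV12-1 lies at 41113567 to 41114067, TRBV12-2 at 41118864 to 41119364 and TRBV24 at 41218091 to 41218557. All 3 are annotated there as V segments. TRBV13-1 lies between the Vβ5 pair.

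TRBV24 rearrangements all carried a stop codon. The capital TAG in the printed TRBV24 sequence is in the frame of the CDR3, and it was present in 77 of 77 TRBV24 rearrangements, which held all 96 TRBV24 templates. Taking mice 1, 2 and 3 in turn, superior before inferior, the 6 samples contributed 6, 16, 17, 13, 12 and 13 of these rearrangements. No sample held a TRBV24 rearrangement without it. The same codon was TAC, for tyrosine, in 79 of 82 TRBV12-1 and 99 of 99 TRBV12-2 rearrangements. None of the 4151 rearrangements of the remaining V segments had a stop codon at that place, and 2072 had TAC and 1350 TAT there. Stop codons elsewhere before the CDR3 were found in 1 TRBV12-1 rearrangement with 1 template and in 25 rearrangements of 9 other segments with 26 templates in all, 16 of them TRBV29. No CDR3 of any segment held a stop codon, and all 4409 listed rearrangements had a CDR3 in frame. As the files list no out-of-frame rearrangement, this absence may be fixed by how the list was made, and is not a result. All shares in this report are shares of in-frame rearrangements. The files name the TRBV24 allele as TCRBV24-01*02 in every TRBV24 rearrangement, and give each a productive frequency like any other. As read, none of the 77 had an open frame from the V segment into the CDR3, so none encodes an uninterrupted chain. The TRBV24 values below are therefore values of DNA rearrangements and not of receptor chains. Protein was not measured.

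Complete rearrangements of the 3 segments show how the stop lies relative to the CDR3. The sequences are 3 of the largest clonotypes, each of a different segment, printed in the 87 bases the files give, with the same codon in capitals. A clonotype here is defined by its V segment, J segment and CDR3 nucleotides within a sample or mouse.
TRBV12-1 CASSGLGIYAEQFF TRBJ2-1: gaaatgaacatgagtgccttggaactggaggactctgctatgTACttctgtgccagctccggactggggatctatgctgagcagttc
TRBV12-2 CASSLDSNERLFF TRBJ1-4: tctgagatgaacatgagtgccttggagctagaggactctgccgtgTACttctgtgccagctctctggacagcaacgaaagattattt
TRBV24 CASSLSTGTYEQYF TRBJ2-7: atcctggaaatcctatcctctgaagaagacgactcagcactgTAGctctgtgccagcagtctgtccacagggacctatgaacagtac
The CDR3 of the TRBV24 clonotype is open and ends in the usual J-encoded motif, and the interruption lies wholly in the V segment.

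All 3 segments were used at low levels. In the order superior and inferior of mice 1, 2 and 3, TRBV12-1 had 10, 23, 20, 28, 23 and 23 templates. TRBV12-2 had 14, 27, 18, 25, 21 and 33, and TRBV24 had 9, 23, 18, 17, 14 and 15. Each segment was thus present in every sample, with 9 to 33 templates. As a share of all templates, TRBV12-2 averaged 2.01% ± 0.380 (SD, n = 6 samples), TRBV12-1 1.89% ± 0.628 and TRBV24 1.43% ± 0.378. TRBV12-1 was lowest in the inferior sample of mouse 3, at 1.24% (95% Wilson interval 0.828 to 1.85), and highest in the inferior sample of mouse 2, at 3.04% (2.11 to 4.36). TRBV24 had its extremes in the same samples, 0.809% (0.491 to 1.33) and 1.85% (1.16 to 2.94). These intervals cover counting error only.

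Among 29 V segments ordered by mean share, TRBV12-2, TRBV12-1 and TRBV24 ranked 16, 17 and 18. Their neighbours were TRBV29 at 2.14% ± 1.08 and TRBV17 at 1.13% ± 0.399 (SD, n = 6), and neighbours in this order lay within each other's spread. The TRBV13 segments between or downstream of the Vβ5 pair on the chromosome were used more, with TRBV13-1 at 3.76% ± 0.531, TRBV13-3 at 4.83% ± 0.542 and TRBV13-2 at 11.9% ± 2.99. Of 8 further segments whose products are reported to react with superantigens of some strains, 7 ranked above the 3 segments. They ranged from TRBV29, which encodes Vβ7, to TRBV19, which encodes Vβ6, at 9.97% ± 0.858. TRBV16, which encodes Vβ11, averaged 5.24% ± 1.17 and TRBV15, which encodes Vβ12, 4.13% ± 0.942.

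**Figure D1:**
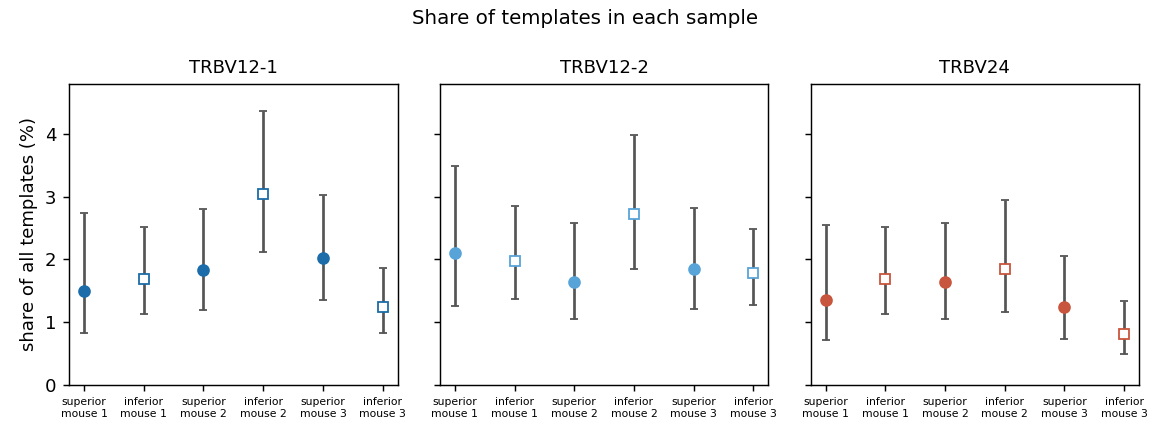
Share of all templates of a sample (%) for TRBV12-1, TRBV12-2 and TRBV24 in the superior (filled circles) and inferior (open squares) sample of each mouse, with 95% Wilson intervals as bars. Shares lie between 0.809% and 3.04%, and superior and inferior values overlap in each segment.

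Superior and inferior samples overlapped in the share of each segment. TRBV12-1 averaged 1.78% ± 0.265 in the superior group and 1.99% ± 0.941 in the inferior group (SD, n = 3 each). The log2 ratio of superior over inferior was -0.03 (SE 0.38, adjusted p = 0.977 by edgeR's quasi-likelihood test with Benjamini-Hochberg adjustment). TRBV12-2 averaged 1.86% ± 0.228 and 2.16% ± 0.496, a log2 ratio of -0.18 (SE 0.33, edgeR adjusted p = 0.898). TRBV24 averaged 1.41% ± 0.212 and 1.45% ± 0.558, a log2 ratio of 0.05 (SE 0.42, edgeR adjusted p = 0.977). Of 23 V segments tested, 0 passed the threshold of 0.05 (0% called), 2 had an unadjusted p under 0.05 in edgeR and 0 in DESeq2. With a spread of this size and 3 samples a group, the direction of each of the 3 ratios turned when 1 mouse was left out.

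TRBV12-1 and TRBV12-2 differed in their use of TRBJ2-1. This J segment was joined in 26 of 127 TRBV12-1 templates, 20.5%, and in 2 of 138 TRBV12-2 templates, 1.45%. In mice 1, 2 and 3 the counts were 9 of 33, 7 of 48 and 10 of 46 TRBV12-1 templates against 2 of 41, 0 of 43 and 0 of 54 TRBV12-2 templates. TRBV12-1 was higher in each mouse, and the groups of mice did not overlap. Within TRBV12-1, in the same order of samples as above, there were 4, 5, 2, 5, 10 and 0 TRBJ2-1 templates, so that in mouse 3 all of them lay in the superior sample. Over pooled templates the share was 14.1 times higher in TRBV12-1 (exact 95% interval 3.54 to 122.8, counting error only). With the mouse as a block, the edgeR log2 ratio was 3.75 (SE 1.003, adjusted p = 0.0130), and this was the only one of 10 J segments called (10% called, with 2 at an unadjusted p under 0.05). The call was lost when clone size was left out. With each clonotype of a sample counted once, 13 of 79 TRBV12-1 clonotypes against 1 of 95 TRBV12-2 clonotypes used TRBJ2-1, and the edgeR adjusted p was 0.0596. DESeq2 gave an adjusted p of 0.671, and edgeR without mouse 1, 2 or 3 gave 0.0914, 0.732 and 0.399.

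TRBJ2-4 had the opposite pattern, and was singled out after its values were seen. It was joined in 3 of 127 TRBV12-1 templates, 2.36%, with 1 in each mouse, and in 24 of 138 TRBV12-2 templates, 17.4%, with 5, 5 and 14 in mice 1, 2 and 3. TRBV12-2 was again higher in each mouse. The log2 ratio of TRBV12-1 over TRBV12-2 was -2.63 (SE 1.03, edgeR adjusted p = 0.0920), which missed the threshold. It passed with each rearrangement counted once (adjusted p = 0.0485) or each clonotype counted once (adjusted p = 0.0369), where 3 of 79 and 20 of 95 clonotypes used it. TRBV12-2 listed 14 of its TRBJ2-4 templates in mouse 3 alone, of which 4 were superior and 10 inferior.

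Against all V segments other than the one described, no J segment passed the edgeR threshold for TRBV12-1 (0% of 12 called, 3 at an unadjusted p under 0.05). DESeq2 called 2 of 12, TRBJ2-1 and TRBJ1-2. The most used J segments of TRBV12-1 were TRBJ2-1, TRBJ2-7 and TRBJ1-1. The log2 ratio of TRBJ2-1 over the other V segments was 1.23 (SE 0.23, edgeR adjusted p = 0.0869, DESeq2 adjusted p = 0.0133), and its 20.5% was the highest of 21 V segments with 50 or more templates. TRBJ2-7, the J segment most used in these cells, was joined in 25 of 127 templates, 19.7%, with a log2 ratio of -0.74 (SE 0.19, edgeR adjusted p = 0.119). TRBJ1-1 was joined in 13 templates, 10.2%, with a log2 ratio of 0.94 (SE 0.36, edgeR adjusted p = 0.1501). TRBJ1-2 was joined in 0 of 127 TRBV12-1 templates, against 5.54% of templates of the V segments other than the 3.

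For TRBV12-2, no J segment passed the edgeR threshold against the other V segments either (0% of 12 called, 1 at an unadjusted p under 0.05 in edgeR, 3 in DESeq2, which called 0). TRBJ2-7 was joined in 39 of 138 templates, 28.3%, with a log2 ratio of -0.25 (SE 0.42, edgeR adjusted p = 0.849). TRBJ2-4 and TRBJ2-3, with 24 and 19 templates, had log2 ratios of 1.32 (SE 0.70) and 1.33 (SE 0.78), each with an edgeR adjusted p of 0.411. At 1.45%, its TRBJ2-1 share was the lowest of the 21 V segments.

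For TRBV24, 0 of 12 J segments were called (0% called, 1 at an unadjusted p under 0.05 in edgeR, 0 in DESeq2). TRBJ2-7 was joined in 19 of 94 templates with a resolved J segment, 20.2%, and in 8, 7 and 4 of them in mice 1, 2 and 3. Its log2 ratio was -0.73 (SE 0.18, edgeR adjusted p = 0.368). With TMM scaling the log2 ratio was -1.30 and the adjusted p 0.00358. With each clonotype counted once, TRBJ2-7 made up 6 of 56 TRBV24 clonotypes, 10.7%, the lowest share of the 21 V segments. TRBJ2-1 was joined in 18 templates, 0, 10 and 8 in mice 1, 2 and 3, but these came from 4 clonotypes. Its log2 ratio was 0.85 (SE 1.31, edgeR adjusted p = 0.993), and it was -0.42 with each clonotype counted once. Without mouse 1, which had no such template, it was 1.83 (edgeR adjusted p = 0.0382). TRBJ2-5, with 11 templates, had a log2 ratio of 0.35 (SE 0.43, edgeR adjusted p = 0.993).

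**Figure D2:**
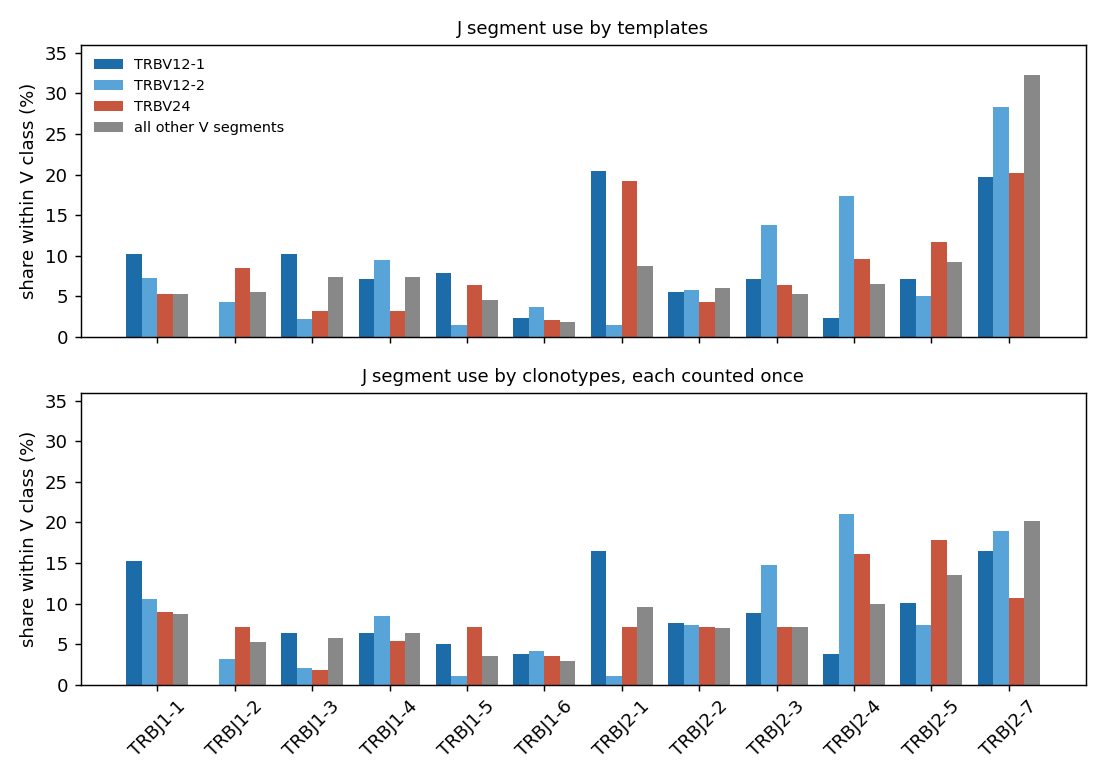
Share of each J segment (%) within TRBV12-1, TRBV12-2, TRBV24 and all V segments other than these 3, over the pooled templates of 6 samples (top) and with each clonotype of a sample counted once (bottom). TRBJ2-1 makes up 20.5% of TRBV12-1 and 1.45% of TRBV12-2 templates, and TRBJ2-4 2.36% and 17.4%; the tall TRBV24 bar at TRBJ2-1 falls from 19.1% of templates to 7.14% of clonotypes.

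The likeness of J usage was described by the Jensen-Shannon distance, which is 0 for equal usage, over pooled templates of the 20 other V segments with 50 or more templates. TRBV12-1 was nearest to TRBV20 at 0.235 and TRBV1 at 0.258. TRBV12-2 was nearest to TRBV13-3 at 0.246 and TRBV13-1 at 0.248, and of the 20 it was farthest from TRBV12-1, at 0.443. TRBV24 was nearest to TRBV1 at 0.209 and TRBV19 at 0.211. Small segments have larger distances through counting error alone, and the distances were not tested.

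D usage varied widely between mice. Over pooled templates TRBD1 was assigned in 44.9% of TRBV12-1, 44.9% of TRBV12-2 and 46.9% of TRBV24 templates, and TRBD2 in 40.9%, 39.9% and 40.6%. In mice 1, 2 and 3, however, TRBD1 made up 71.9%, 45.7% and 20.7% of TRBV24 templates and 24.4%, 39.5% and 64.8% of TRBV12-2 templates. In TRBV12-1 it made up 36.4%, 50% and 45.7%, the narrowest range of the 3. In all V segments other than TRBV24 it made up 43.4%, 43.9% and 49.2%. TRBD2 lies downstream of the J1 cluster and cannot join it by deletion. Templates listed with both numbered 3 for TRBV12-1, 1 for TRBV12-2 and 4 for TRBV24. These were 6.25%, 2.56% and 14.8% of the templates of each segment with a J1 segment, against 5.35% in the remaining V segments. The difference was not tested. Within TRBV12-1, TRBD1 was assigned in 0%, 45% and 34.8% of templates in the superior samples of mice 1, 2 and 3, and in 52.2%, 53.6% and 56.5% in the inferior samples. The groups did not overlap, each of the 3 mice had less TRBD1 in its superior sample, and the means were 26.6% ± 23.6 and 54.1% ± 2.22 (SD, n = 3 each, two-sided exact permutation p = 0.1, the smallest possible, adjusted p = 0.7 over 21 values). This test did not use the pairing of samples by mouse, and a paired sign-flip test of 3 mice cannot go below 0.25. The 0% of the superior sample of mouse 1 rested on 10 templates. TRBV12-1 also joined the J2 cluster more in each superior sample, at 90%, 65% and 82.6% against 69.6%, 46.4% and 39.1%. The 2 shares are not independent, as TRBV12-1 templates with a J1 segment had TRBD1 in 36, TRBD2 in 3 and no assigned D in 9.

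TRBV24 had longer CDR3s than the other V segments in each mouse. In mice 1, 2 and 3 the mean TRBV24 CDR3 held 14.3, 14.4 and 14.5 residues, against 13.7 in all other V segments of each mouse. The per-mouse mean was 14.4 ± 0.0885 against 13.7 ± 0.0453 (SD, n = 3), a difference of 0.717 ± 0.0711 residues. It was longer in 3 of 3 mice, and the two-sided exact sign-flip permutation test gave its smallest possible p of 0.25 (adjusted p = 0.955 over 28 values). With the 6 samples as units, the difference was 0.663 ± 0.383, longer in 6 of 6 samples (exact permutation p = 0.03125, the smallest possible, adjusted p = 0.292). That test counts the 2 samples of a mouse as separate units, so its p-value does not measure the spread between mice. With the other V segments weighted to the J usage of TRBV24, an alternative chosen after seeing the data, the difference was 0.728. CDR3s of 16 or more residues made up 22 of 96 TRBV24 templates, 22.9%, against 7.64% in the V segments other than the 3. Of these 22 templates, 8 belonged to 1 TRBJ2-1 clonotype of the inferior sample of mouse 3. Those of 12 or fewer made up 8.33% against 17.9%. Its mean of 14.42 residues over pooled templates ranked 1 of 21 V segments, ahead of TRBV5 at 14.25. Its mean over clonotypes counted once, 14.21, ranked 3, behind TRBV5 and TRBV2, both at 14.32. The superior samples of mice 1, 2 and 3 had means of 13.9, 14.3 and 14.0 and the inferior samples 14.5, 14.5 and 15, so the groups did not overlap (exact permutation p = 0.1 without pairing by mouse, the smallest possible, adjusted p = 0.7). The same clonotype, with 16 residues, held 8 of the 15 TRBV24 templates behind the last of these means.

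The Vβ5 pair had CDR3s of common length. TRBV12-1 averaged 13.8 ± 0.0881 residues per mouse and TRBV12-2 13.7 ± 0.290 (SD, n = 3), differences of 0.0764 ± 0.0446 and 0.00449 ± 0.341 from the other V segments. TRBV12-1 was longer in 3 of 3 mice (exact permutation p = 0.25) and TRBV12-2 in 1 of 3 (exact permutation p = 1).

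**Figure D3:**
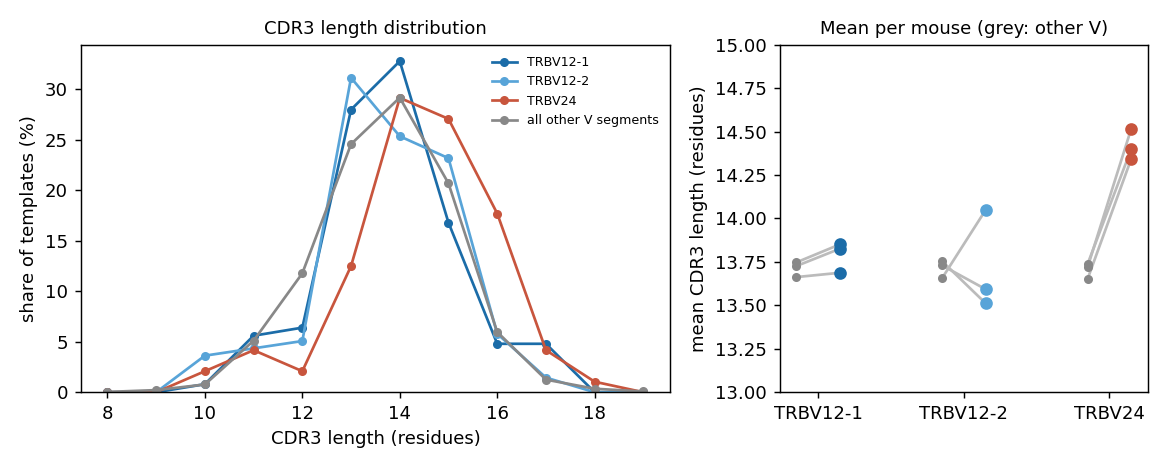
Left, share of templates (%) at each CDR3 length (residues) for the 3 segments and the V segments other than these, pooled over 6 samples. Right, mean CDR3 length of each mouse (coloured) joined to that of all V segments other than the one named in the same mouse (grey), on an axis from 13 to 15 residues; TRBV24 lies above in 3 of 3 mice, with means of 14.3 to 14.5.

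The central CDR3 residues, from position 6 to the 6th from the end, were tested one by one, and 0 passed the edgeR threshold in any comparison. The share called was 0% of 19 residues for each segment against the other V segments, with 2, 2 and 1 at an unadjusted p under 0.05 in edgeR for TRBV12-1, TRBV12-2 and TRBV24, and 2, 3 and 1 in DESeq2. Between TRBV12-1 and TRBV12-2 it was 0% of 15, with 1 and 0 at an unadjusted p under 0.05. Glycine was the most common central residue, at 30.5%, 34.4% and 31.6% in TRBV12-1, TRBV12-2 and TRBV24, with log2 ratios of -0.13 (SE 0.20), 0.08 (SE 0.11) and -0.05 (SE 0.13) over the other V segments. Asparagine and aspartate followed in TRBV12-1 at 10.9% and 8%, aspartate and arginine in TRBV12-2 at 8.81% each, and threonine and aspartate in TRBV24 at 9.91% and 9.43%. Their log2 ratios lay between 0.14 and 0.63, with edgeR adjusted p-values of 0.346 to 0.891. Between TRBV12-1 and TRBV12-2 the log2 ratios of glycine, asparagine and aspartate were -0.21 (SE 0.24), 0.94 (SE 0.61) and -0.19 (SE 0.61). Alanine, singled out after its values were seen, made up 1.89% of central TRBV24 residues against 6.74% in the other V segments, a log2 ratio of -1.83 (SE 0.66, edgeR adjusted p = 0.165).

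A hydrophobic residue at CDR3 position 6 or 7, a place that contacts peptide, was most common in TRBV12-1. Cysteine, phenylalanine, isoleucine, leucine, methionine, valine, tryptophan and tyrosine were counted as hydrophobic, and alanine was not. Its share was 40.6%, 46.8% and 45.7% of TRBV12-1 templates in mice 1, 2 and 3, against 30.4%, 27.7% and 26.2% in the other V segments. The means were 44.4% ± 3.29 and 28.1% ± 2.16 (SD, n = 3), higher in 3 of 3 mice without overlap (exact permutation p = 0.25, the smallest possible, adjusted p = 0.955). With the 6 samples as units, 2 from each mouse, it was higher in 5 of 6 (exact permutation p = 0.09375, adjusted p = 0.4375). The samples of a mouse differed widely, at 77.8%, 40% and 60.9% in the superior and 26.1%, 51.9% and 30.4% in the inferior samples of mice 1, 2 and 3. TRBV12-1 ranked 1 of 21 V segments by this share. TRBV12-2 averaged 34.5% ± 12.1 and TRBV24 37.4% ± 18.5, and in both the mice spread over the level of the other V segments. The TRBV24 mean rested on mouse 3, at 58.6%, where 1 clonotype held 8 templates; without that mouse the difference from the other V segments turned from 9.06 to -2.64 percentage points. Position 5, mostly encoded by the end of the V segment, was leucine in 50.4%, 59.4% and 70.8% of TRBV12-1, TRBV12-2 and TRBV24 templates, against 18.3% elsewhere.

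The largest clonotype of a sample held 5 templates in TRBV12-1, 5 in TRBV12-2 and 8 in TRBV24. Clonotypes of 1 template made up 57.0% of TRBV12-1, 70.5% of TRBV12-2 and 73.7% of TRBV24 clonotypes, against 58.1% of the remaining V segments. In TRBV12-1, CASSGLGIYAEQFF with TRBJ2-1, printed above, had 5 templates in the superior sample of mouse 3 and 0 in the inferior. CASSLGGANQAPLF with TRBJ1-5 had 2 and 3 templates in the same mouse, and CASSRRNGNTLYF with TRBJ1-3 had 0 and 4 in mouse 2. In the same order, a further TRBJ1-3 clonotype with a CDR3 of 17 residues had 0 and 4 in mouse 2, and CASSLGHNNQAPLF with TRBJ1-5 had 0 and 3 in mouse 3.

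In TRBV12-2 the largest was a TRBJ2-3 clonotype with a CDR3 of 15 residues, with 0 superior and 5 inferior templates in mouse 1. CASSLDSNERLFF with TRBJ1-4 had 1 and 3 and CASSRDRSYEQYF with TRBJ2-7 had 4 and 0 in mouse 3. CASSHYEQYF had 3 and 0 and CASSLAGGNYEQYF 0 and 3 in mouse 2, both with TRBJ2-7.

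In TRBV24, the stop-bearing clonotype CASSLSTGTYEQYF with TRBJ2-7 had 5 superior and 3 inferior templates in mouse 1. A TRBJ2-1 clonotype with a CDR3 of 16 residues had 0 and 8 in mouse 3, and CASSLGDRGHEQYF with TRBJ2-7 had 0 and 5 in mouse 2. Both remaining ones had a CDR3 of 15 residues, a TRBJ2-1 clonotype with 4 and 0 in mouse 2 and a TRBJ1-2 clonotype with 0 and 4 in mouse 1.

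Few clonotypes recurred. Within a mouse, 2 of 77 TRBV12-1, 3 of 92 TRBV12-2 and 2 of 55 TRBV24 clonotypes lay in both of its samples, against 150 of 3592, 4.18%, of the remaining V segments. At the amino acid level, 1 TRBV12-2 clonotype was found in 2 mice, namely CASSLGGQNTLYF with TRBJ2-4. Mouse 1 held 1 template, in its inferior sample, and mouse 2 held 1, in its superior sample, in 2 nucleotide forms. No TRBV12-1 or TRBV24 clonotype was found in more than 1 mouse, against 29 of 3530 elsewhere.

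TRBV24 had the fewest templates per rearrangement, and this value depended on how its rearrangements were counted. It had 1.25 templates per rearrangement, the lowest of 21 V segments, against 1.39 in TRBV12-2, 1.55 in TRBV12-1 and 1.61 in the remaining V segments. However, 20 of 77 TRBV24 rearrangements, 26.0%, repeated the CDR3 nucleotides and J segment of another TRBV24 rearrangement of their sample and differed from it in the V part. Each of these repeats had 1 template, as did each repeat in TRBV12-1, TRBV12-2 and the remaining V segments. In TRBV24, 1 clonotype was listed as 6 rearrangements, against at most 5 in the remaining V segments. The share of repeats was 3.66% in TRBV12-1, 4.04% in TRBV12-2 and 9.85% in the remaining V segments. It was highest in TRBV24 among 19 V segments with 50 or more rearrangements, followed by TRBV13-2 at 25.9% and TRBV29 at 21.5%. After repeats were merged, TRBV24 had 1.68 templates per clonotype and ranked 10 of 21. TRBV12-2 then had 1.45 and ranked 20 of 21, and TRBV12-1 had 1.61 and ranked 14.

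**Figure D4:**
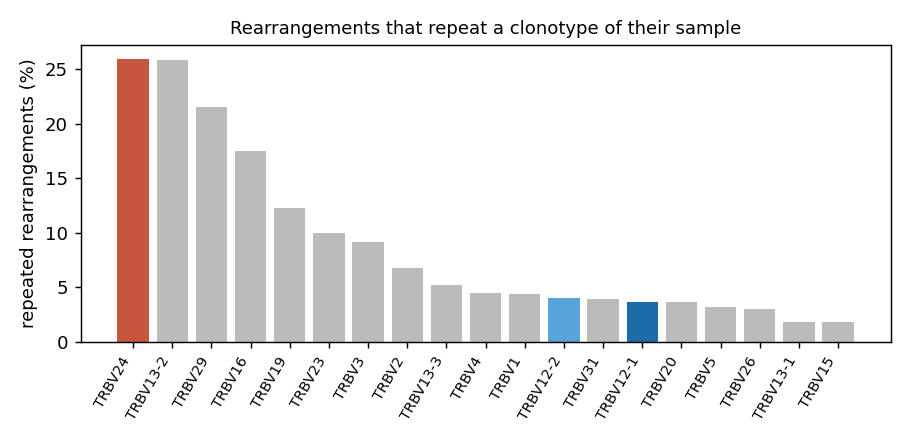
Share of rearrangements (%) that repeat the CDR3 nucleotides and J segment of another rearrangement of the same V segment and sample, for the 19 V segments with 50 or more rearrangements. TRBV24 (red) stands at 26.0%, next to TRBV13-2 at 25.9%, and TRBV12-2 and TRBV12-1 (blue) at 4.04% and 3.66%.

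Against the other V segments of the same mouse, templates per rearrangement were lower in TRBV12-2 in 3 of 3 mice, at 1.39 ± 0.0685 against 1.603 ± 0.0182 (SD, n = 3, exact permutation p = 0.25, the smallest possible, adjusted p = 0.955). With the 6 samples as units, 2 from each mouse and so not separate animals, they were lower in 6 of 6 (exact permutation p = 0.03125, adjusted p = 0.292). With repeats merged they were lower in 3 of 3 mice, at 1.45 ± 0.0452 against 1.78 ± 0.0436. TRBV24 was lower in 3 of 3 mice as listed, at 1.26 ± 0.168 against 1.604 ± 0.0229, and higher in 1 of 3 mice after merging. TRBV12-1 was higher in 1 of 3 mice as listed, at 1.54 ± 0.104 against 1.599 ± 0.0180, and lower in 3 of 3 mice with repeats merged, at 1.599 ± 0.0863 against 1.78 ± 0.0421 (exact permutation p = 0.25, the smallest possible). In all, 0 of 28 single values of the segments passed the threshold after adjustment, and 0 of 21 did so between superior and inferior samples. Neither test can reach 0.05 with 3 mice.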

How the data were processed

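Per the labels' protocols, the authors sorted cells, extracted DNA and sequenced immunoSEQ libraries, and the deposited count of each rearrangement is a whole number without normalization. The deposited productive frequency is a fraction that the authors normalized, equal to the count divided by its sample's sum. The submitters' processing notes name mm10. How reads were aligned and clonotypes called is not given in the sources used here. Counts per V segment, J segment or central CDR3 residue were tested with edgeR 4.0.16 (R 4.3.3, quasi-likelihood, common dispersion, total templates as library size, a minimum of 10 counts, Benjamini-Hochberg adjustment). J and residue tests summed each mouse and took the mouse as a block. V tests used samples without it. DESeq2 1.42.0 was an alternative. Standard errors were derived from the test statistic. Single values had exact permutation tests in scipy 1.17.1. The "other V segments" in a test are all but the one tested, and the "remaining V segments" all but the 3. The edgeR tests were tried in their main setting on counts simulated without added spread between mice. DESeq2 and the other edgeR settings were not tried in this way. Titles pair the samples by animal. Deviations correlated between a mouse's samples at 0.067, 0.665 and -0.348 over V segments and at 0.114, 0.935 and 0.761 over J segments. Exact tests between superior and inferior samples did not use this pairing. Intervals cover counting error only. The p-values of tests by mouse cover the spread between these mice. Those of V usage and of tests with the 6 samples as units cover the spread between samples, 2 of them from each mouse. Templates with an unresolved J segment (2 in TRBV24) were left out of J usage, and those with a CDR3 not starting with cysteine (2 in TRBV12-1) out of CDR3 features. Named were the 3 segments, each J segment or residue past the threshold or else the 3 most used, the 5 largest clonotypes per segment, those found in 2 mice, and the nearest V segments by J usage. Members, lists and tests were chosen with earlier results of these data known.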

Additional observations from a re-analysis of the deposited data

How the results depend on the processing

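Calls rested on few templates. For J usage of TRBV12-1 against TRBV12-2, the 1 call became 2 without the replicate block (TRBJ2-1, log2 ratio 3.59, and TRBJ2-4, -2.68), and 0 with DESeq2 or without any 1 mouse (range 0 to 0). With each rearrangement counted once the number stayed 1, but the call passed from TRBJ2-1 (3.58, edgeR adjusted p = 0.0534) to TRBJ2-4 (-2.30), and likewise with each clonotype counted once (3.56 and -2.31). Over its alternatives the adjusted p of TRBJ2-1 ran from 0.00779 to 0.732. Against the other V segments, DESeq2 called 2 J segments for TRBV12-1, and leaving out 1 mouse gave 0 to 1 calls. Without the replicate block, 2 were called for TRBV12-2 (TRBJ2-1, -2.65, and TRBJ2-4, 1.42) and 1 residue for TRBV24 (alanine, -1.81, and -1.83 with no minimum count). For TRBV24, TMM scaling called 1 J segment (TRBJ2-7), and leaving out 1 mouse gave 0 to 1. V usage and the other residue comparisons had 0 calls under each alternative run. The block for V usage changed no call.

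Some directions turned. Leaving out 1 mouse at a time gave log2 ratios of superior over inferior of -0.41 to 0.33 for TRBV12-1, -0.32 to 0.0637 for TRBV12-2 and -0.20 to 0.26 for TRBV24, and differences in share of -0.698 to 0.303, -0.502 to 0.0989 and -0.267 to 0.110 percentage points. It gave log2 ratios of -0.50 to 0.0387 for TRBJ2-7 in TRBV12-2, -0.0156 to 1.83 for TRBJ2-1 in TRBV24, -0.21 to 0.00976 for glycine and -0.29 to 0.75 for aspartate in TRBV12-1, -0.83 to 0.70 for aspartate between the Vβ5 pair, and -0.18 to 0.87 for threonine in TRBV24. It gave -0.190 to 0.128 residues for TRBV12-2 length and -2.64 to 16.4 points for hydrophobic residues in TRBV24. TMM scaling turned TRBV24 (superior over inferior) to -0.0062, TRBJ2-5 in TRBV24 to -0.23 and glycine in TRBV12-2 to -0.0228; DESeq2 turned TRBV24 to -0.0854. Counting rearrangements once turned TRBV12-1 to 0.0340 and hydrophobic residues in TRBV12-2 to -0.0823 points; counting clonotypes once turned TRBV12-1 to 0.0567 and TRBJ2-1 in TRBV24 to -0.42. The length difference of TRBV12-2 turned to -0.0153 with samples as units and -0.0192 with J weighting. The cause was not tested. Of 456 alternative values, 401 were classed as unchanged. For a log2 ratio or a difference from the other V segments this meant the same direction and side of the threshold. For differences in single values between superior and inferior samples it meant the same direction only. For a number of calls it meant an equal or similar number, even where the segment called had changed. For single values tested by mouse the side was fixed in advance, since the exact tests cannot pass with 3 mice. With the 6 samples as units it was not fixed, as the smallest possible exact permutation p was 0.03125. The length difference of TRBV24 ranged from 0.657 to 0.745 residues over its alternatives. None of these counted each clonotype once, and the TRBV24 mean so counted was 14.21 residues, below the 14.42 over pooled templates.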
